A study of Homo sapiens with 12 samples.

Results

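The genes described here are MYC and 46 genes of ribosome biogenesis, measured in KP4 cells under metformin and FK866. They were chosen by name, with the condition that the mean over the 12 libraries was at least 10 normalized counts. All 47 names were found once among the 36601 genes of the table, and all 47 met the condition, as did 15376 genes in all. The lowest mean of the 47 genes was 929 normalized counts, so none stood near the condition. The 46 genes fall into 6 groups by role. These are transcription by RNA polymerase I (5 genes), the core of the box C/D snoRNPs (3), the core of the box H/ACA snoRNPs (4), abundant nucleolar proteins (4), processing of the small subunit precursor (13) and processing of the large subunit precursor (17).

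KP4 is a human line of pancreatic ductal cell carcinoma, labelled WT for genotype. The cells were exposed for 24 h to DMSO, the vehicle, to 10 mM metformin (Met), to 5 nM FK866 (FK) or to both drugs (Met+FK), with 3 libraries per treatment, numbered as replicates 1 to 3. Metformin blocks mitochondrial respiration at complex I, and FK866 inhibits NAMPT, an enzyme that recycles nicotinamide into NAD. All 4 treatments are 1 cell line in culture, and the labels do not say whether the replicates came from separate cultures, so the p-values measure only the spread between these libraries.

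Ribosomes are built in the nucleolus. RNA polymerase I transcribes a long precursor of the ribosomal RNAs, small nucleolar ribonucleoproteins (snoRNPs) guide its chemical modification, and large assemblies of proteins and helicases fold it, cut it and add the ribosomal proteins. MYC is a transcription factor that binds with its partner MAX to E-boxes, the letters CACGTG and close variants, and it is known for raising the transcription of many genes of this pathway in growing cells. Ribosome production is among the costliest processes of a growing cell, and in many tumours it runs at a high rate.

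Each library held between 30667735 and 41052203 counted read pairs. Genes of the mitochondrial genome took 3.22% to 4.51% of the read pairs. The values are counts divided by a size factor for each library, called normalized counts, and the test was limma-trend on log2(normalized count + 1) over the 15376 genes. In the text a gene rose or fell where the p-value adjusted with the Benjamini-Hochberg method over all 15376 genes was under 0.05, and for a DEG the fold change also had to exceed 1.5 (0.585 in log2). FK replicate 2 stood apart, with a chi-square per degree of freedom of 46.8 and 29.9 against the other FK libraries, and the highest value of any other pair of replicates was 23.5. The libraries also differed in how the level of a gene depended on the GC content of its transcript. The slope per 10 percentage points of GC was 0.196, 0.043 and 0.180 on the log2 scale in DMSO replicates 1 to 3, and −0.085, −0.139 and 0.080 in the Met libraries. It was 0.0027, −0.245 and −0.025 in the FK libraries and −0.023, −0.048 and 0.063 in the Met+FK libraries. The slope thus varied within each treatment. The DMSO range lay above that of FK and overlapped those of Met and Met+FK, and a difference between treatments was not tested.

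Of the markers of the labelled cell type, KRT18 and KRT8, keratins of simple epithelia, were at 18307 ± 394 and 3156 ± 96.3 (SD, n = 3) normalized counts in DMSO. EPCAM, an epithelial adhesion protein, was at only 7.69 ± 2.26 (SD, n = 3), and CDH1 at 28.5 ± 5.53 (SD, n = 3). VIM, the mesenchymal intermediate filament protein, was at 115708 ± 5434 (SD, n = 3). Of the 7 epithelial markers tested, 3 were lower and 2 higher in Met than in DMSO, where 25.9% of all genes tested were lower and 24.9% higher. The sum of all 8 epithelial markers ranged from 25327 to 26266 normalized counts in DMSO and from 16512 to 19694 in Met. Among markers of other cell types, CD3E, COL1A2, DCN, PRSS1, CPA1 and CELA3A had means under 1 normalized count in every treatment. The leukocyte marker PTPRC was not at 0, with 244 ± 54.3 in DMSO and 161 ± 20.8 in Met (SD, n = 3), nor was the macrophage marker CD68, with 944 ± 56.9 and 776 ± 31.7 (SD, n = 3). Both fell in Met against DMSO. The sum of the 4 fibroblast markers was 139 to 203 in DMSO, 79.4 to 112 in Met and 240 to 315 in FK, and that of the 3 endothelial markers was 42.4 to 56.3 in DMSO and 21.9 to 35.5 in Met. The part of these markers, and of the GC slopes, in the results on the 47 genes was not tested, except where a fit without the GC trend is given.

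The 47 genes were abundant. Per kilobase of the canonical transcript their median was 1308 normalized counts, against 209 over the genes tested. The level ranged from 275 per kilobase for RRN3, which recruits RNA polymerase I to its promoter, to 45930 for NPM1, a histone chaperone and one of the main proteins of the nucleolus. MYC ranked 17 of 47 on this scale. NPM1 and RRN3 have near-identical copies elsewhere in the genome, so their values are uncertain, since the counting could split reads between copies. Of the 47 genes, 22 overlap a gene on the opposite strand, of which UTP4 and WDR74 also overlap 1 on their own strand, and the strand setting of the counting is not given in the sources used here. For MYC the overlapping gene, CASC11, had a mean of only 14.1 normalized counts. For RRN3 (overlapped by PDXDC1), GNL3 (PBRM1 and GLT8D1), BRIX1 (RAD1) and POLR1C (4 genes, among them YIPF3 and XPO5) the most abundant overlapping gene had a higher mean than the gene itself, so their values are less certain than those of the other genes.

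The first comparison asks how metformin alone changed these genes. Metformin lowered more of them than it raised, and MYC moved the other way. Of the 47 genes, 26 (55.3%) were lower in Met than in DMSO, where 25.9% of all genes tested were lower. MYC, RRN3 and DDX10 were higher (6.38% of the 47), where 24.9% of all genes tested were higher. The median log2 fold change was −0.30 over the 47 genes and 0.012 over all genes tested. At the fold threshold, 7 of the 47 genes were DEGs with a lower level, where 10.2% of all genes tested were, and no gene of the 47 was a DEG with a higher level.

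MYC (chromosome 8, 127735434 to 127742951, plus strand, GRCh38) had 6420, 5929 and 6205 normalized counts in DMSO and 8601, 7742 and 7846 in Met. Every Met library lay above every DMSO library. The log2 fold change was 0.38 (SE 0.072, adjusted p = 0.000497 in limma), a rise of 30.3%. In FK the values were 6029, 5292 and 5513, and in Met+FK they were 10711, 9907 and 10661. All 3 Met+FK libraries stood above all 9 other libraries, and MYC was the one gene of the 47 that was a DEG with a higher level in any of the 5 comparisons between treatments.

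The genes that fell came from all 6 role groups. The heat map of the 47 genes shows the 26 falls in blue in the Met libraries, with MYC, RRN3 and DDX10 in red. Its colours give the difference from DMSO and not the call, so genes that did not pass, such as NOC3L, are red there too.

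**Figure D1:**
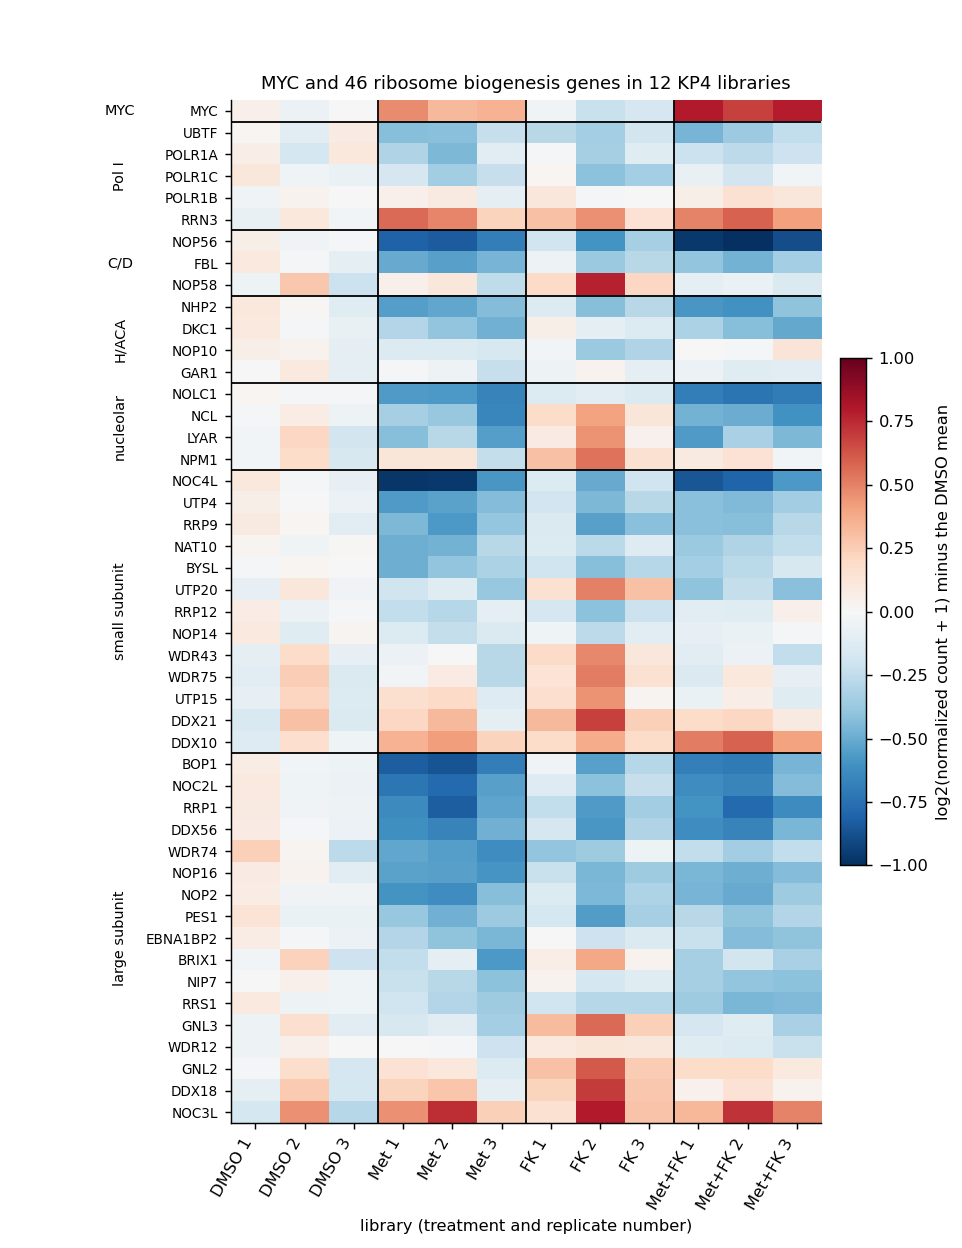
Each row is a gene, grouped by role and ordered within a role by the log2 fold change of Met against DMSO, and each column is a library. The colour gives log2(normalized count + 1) minus the mean of the 3 DMSO libraries. MYC is red in the Met and Met+FK libraries while most rows under it, such as NOP56, NOC4L and BOP1, are blue there, and FK replicate 2 stands out from the other FK libraries in both colours.

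Among the genes of RNA polymerase I transcription, 2 of 5 fell and 1 rose. UBTF, the factor that bends and opens the ribosomal DNA promoter, had 8033, 7368 and 8396 normalized counts in DMSO and 5894, 5931 and 6757 in Met, a log2 fold change of −0.36 (SE 0.081, adjusted p = 0.00203). POLR1A, the largest subunit of the polymerase, fell by 0.28 on the log2 scale. RRN3 had 774, 878 and 800 normalized counts in DMSO and 1207, 1147 and 953 in Met. No Met library of RRN3 came down to the DMSO range, and it rose by a log2 fold change of 0.43 (SE 0.106, adjusted p = 0.00372). POLR1B, the second largest subunit, differed by 0.02 on the log2 scale (adjusted p = 0.85).

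The snoRNP genes did not move as a block. Box C/D snoRNPs direct the 2'-O-methylation of ribosomal RNA. Their core protein NOP56 (chromosome 20, 2652593 to 2658393) had 8161, 7684 and 7729 normalized counts in DMSO and 4494, 4422 and 4873 in Met. No Met library reached the DMSO range, and NOP56 fell by 0.77 on the log2 scale (SE 0.089, adjusted p = 6.93e-06). The methyltransferase FBL fell by 0.50. NOP58, which pairs with NOP56 in the same particle, had 2031, 2539 and 1810 in DMSO and 2187, 2272 and 1764 in Met, with overlapping ranges and a log2 fold change of −0.03 (SE 0.151, adjusted p = 0.881). Box H/ACA snoRNPs direct pseudouridylation. NHP2 fell by 0.50 on the log2 scale (SE 0.088, adjusted p = 0.000305), and DKC1, the pseudouridine synthase, fell by 0.39. NOP10 and GAR1 had log2 fold changes of −0.14 and −0.10 and did not pass the test. NHP2 overlaps RMND5B on the other strand, which had a mean of 1887 normalized counts against 4702 for NHP2.

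Of the abundant nucleolar proteins, 3 of 4 fell. NOLC1, a chaperone that shuttles between nucleolus and cytoplasm, had 14899, 14640 and 14622 normalized counts in DMSO and 9951, 9881 and 9267 in Met. The groups lay far apart, and it fell by 0.60 on the log2 scale (SE 0.057, adjusted p = 1.06e-06). NCL, nucleolin, had 27731, 29526 and 27105 in DMSO and 22277, 21575 and 17891 in Met, a log2 fold change of −0.46 (SE 0.090, adjusted p = 0.000707). LYAR, a nucleolar zinc finger protein, fell by 0.42 (SE 0.124, adjusted p = 0.011). NPM1 ranged from 50135 to 63675 in DMSO and from 47573 to 61058 in Met, and its log2 fold change was 0.0031 (SE 0.115, adjusted p = 0.984).

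Of the 13 genes of small subunit processing, 6 fell and 1 rose. NOC4L, a partner of NOP14 in the small subunit precursor, changed most among the 47 genes. It had 1635, 1501 and 1439 normalized counts in DMSO against 776, 781 and 1016 in Met, a log2 fold change of −0.84 (SE 0.123, adjusted p = 6.19e-05). UTP4, RRP9, NAT10, BYSL and RRP12 fell by between 0.21 and 0.51 on the log2 scale. DDX10, an RNA helicase, had 2189, 2698 and 2325 in DMSO and 3049, 3206 and 2791 in Met, and it rose by a log2 fold change of 0.33 (SE 0.093, adjusted p = 0.00806). The other 6 genes of the group, among them the helicase DDX21 and the large scaffold UTP20, lay between −0.23 and 0.15 and did not pass the test.

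The group with the most falls was large subunit processing, with 11 of 17 genes lower and none higher. The 4 DEGs in it were BOP1, NOC2L, RRP1 and DDX56. BOP1, of the PES1-BOP1-WDR12 complex, had 3860, 3599 and 3534 normalized counts in DMSO and 2069, 2017 and 2264 in Met, a log2 fold change of −0.79 (SE 0.110, adjusted p = 3.94e-05). Its partner PES1 fell by 0.41, while the third member of the complex, WDR12, had a log2 fold change of −0.07 (adjusted p = 0.41). NOC2L had 11962, 10882 and 10746 in DMSO and 6781, 6537 and 7688 in Met, with a log2 fold change of −0.68 (SE 0.090, adjusted p = 2.5e-05). NOC3L, which binds NOC2L in the large subunit precursor, had 1672, 2597 and 1552 in DMSO and 2589, 3159 and 2231 in Met. The ranges overlapped, and its log2 fold change of 0.48 (SE 0.194, adjusted p = 0.0513) did not pass the test. RRP1 and DDX56 fell by 0.66 (SE 0.097, adjusted p = 5.93e-05) and 0.59 (SE 0.098, adjusted p = 0.000186) on the log2 scale.

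**Figure D2:**
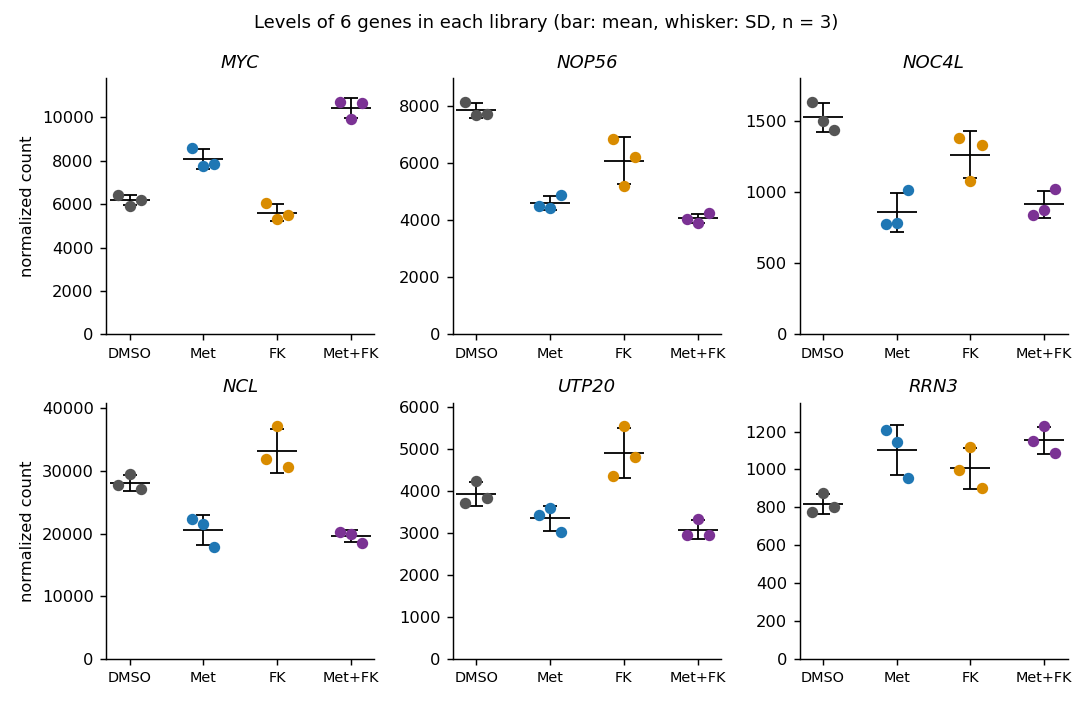
Each point is the normalized count of a gene in 1 library, with the mean as a bar and the SD as a whisker (n = 3 per treatment). MYC is highest in Met+FK, NOP56 and NOC4L are lower in both treatments with metformin, and NCL and UTP20 have their highest libraries in FK.

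Summed over the 46 genes without MYC, the normalized counts made up 0.807% to 0.888% of the library in DMSO and 0.708% to 0.781% in Met. The ranges did not overlap. In FK the share was 0.837% to 0.914%, and in Met+FK it was 0.739% to 0.764%. The most abundant genes weigh most in this sum, so it does not give the direction of most of the 46 genes. NPM1 had a mean of 56279 normalized counts in DMSO and 70907 in FK, and NCL of 28121 and 33200. Neither passed the test in FK against DMSO. The bulk libraries do not tell fewer cells that express a gene from less RNA per cell. With all libraries scaled to the same total, the median log2 fold change of Met against DMSO was −0.18 over the 47 genes and 0.13 over all genes tested, so the 47 genes lay below all genes by either scaling. That scaling called 4 of the 47 genes higher and 21 lower, and 5241 of all genes higher and 2926 lower, against 3834 and 3989 in the deposited scaling. Of the 29 genes called in this comparison, 24 were called in each of the 18 alternative fits. MYC, NOP56, NOC4L, BOP1 and NOLC1 were among them, and RRP12 was the least stable, called in 7.

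Letters that match the E-box stood in many of these promoters. RefSeq promoters (GRCh38.p14, from 250 bases before to 50 after a start site) were matched for 40 of the 47 genes, not for DDX18, RRP12, NOLC1, BOP1, NOP58, MYC and RRS1. CACGTG, which reads the same on both strands, stood in 18 of the 40 genes (45%), against 12.4% of the 10829 genes tested that had a promoter and 8.77% of all genes with one. In 17 of the 18 a copy lay within 50 bases of a start. The GC box, searched as GGCGGG on both strands, stood in 77.5% of the 40 genes and in 76.6% of the genes tested with a promoter. The promoters of UTP20, FBL, GNL2, NOC4L and DDX10 are given from 250 bases before to 30 after the start, because they show where the letters lie, or are missing, in genes that fell, rose or did not pass the test with metformin. CACGTG is in capitals where present. It begins 10 bases before the start of UTP20, at base 7 of the transcript of FBL and at base 4 of that of GNL2.

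UTP20, chr12:101279855-101280134, plus strand: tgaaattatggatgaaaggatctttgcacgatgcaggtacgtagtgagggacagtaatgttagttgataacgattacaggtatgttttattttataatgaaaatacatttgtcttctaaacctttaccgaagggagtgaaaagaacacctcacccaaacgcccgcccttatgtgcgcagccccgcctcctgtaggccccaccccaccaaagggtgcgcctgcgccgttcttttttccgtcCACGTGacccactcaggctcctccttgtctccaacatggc

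FBL, chr19:39846350-39846629, minus strand: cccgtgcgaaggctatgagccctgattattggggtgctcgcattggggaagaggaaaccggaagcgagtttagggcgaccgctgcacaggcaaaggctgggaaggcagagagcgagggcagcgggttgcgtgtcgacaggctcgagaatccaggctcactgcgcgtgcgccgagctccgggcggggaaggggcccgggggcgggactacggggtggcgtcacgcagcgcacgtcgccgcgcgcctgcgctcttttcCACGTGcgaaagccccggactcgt

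GNL2, chr1:37595908-37596187, minus strand: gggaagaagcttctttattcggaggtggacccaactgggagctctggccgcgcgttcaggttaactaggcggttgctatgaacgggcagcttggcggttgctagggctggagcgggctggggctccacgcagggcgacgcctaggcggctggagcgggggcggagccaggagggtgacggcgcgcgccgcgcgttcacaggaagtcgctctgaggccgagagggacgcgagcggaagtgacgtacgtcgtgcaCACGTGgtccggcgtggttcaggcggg

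NOC4L, chr12:132144207-132144486, plus strand, without CACGTG: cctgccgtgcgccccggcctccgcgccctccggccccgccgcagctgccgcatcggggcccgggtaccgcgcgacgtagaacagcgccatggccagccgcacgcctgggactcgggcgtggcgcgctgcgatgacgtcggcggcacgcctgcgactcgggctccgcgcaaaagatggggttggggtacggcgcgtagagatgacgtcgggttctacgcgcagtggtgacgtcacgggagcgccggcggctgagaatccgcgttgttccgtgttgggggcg

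DDX10, chr11:108664819-108665098, plus strand, without CACGTG: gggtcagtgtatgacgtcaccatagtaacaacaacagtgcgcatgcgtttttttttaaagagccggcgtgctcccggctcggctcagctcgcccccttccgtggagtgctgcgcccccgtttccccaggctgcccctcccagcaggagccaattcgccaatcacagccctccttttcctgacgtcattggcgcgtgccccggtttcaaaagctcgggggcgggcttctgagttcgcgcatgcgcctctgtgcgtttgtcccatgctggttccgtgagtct

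The 18 genes with CACGTG in the promoter had 9 lower and 0 higher in Met against DMSO, with a median log2 fold change of −0.31. The 22 genes without it had 13 lower and 2 higher, with a median of −0.33. FBL carries the letters and fell with metformin, GNL2 carries them and differed by 0.04 on the log2 scale (adjusted p = 0.78), and NOC4L fell most without them. The split is a description of letters in 1 window per start site, with no test.

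The second comparison asks how FK866 alone changed the genes. Here 13 of the 47 genes (27.7%) were lower and 4 (8.51%) were higher than in DMSO, where 9.84% of all genes tested were lower and 11.3% higher. The median log2 fold change was −0.14. No gene of the 47 reached the fold threshold as a DEG, where 0.754% of all genes tested were DEGs with a lower level. The largest fall was that of RRP1, which had 4405, 4036 and 3988 normalized counts in DMSO and 3498, 2802 and 3249 in FK, without overlap, a log2 fold change of −0.38 (SE 0.097, adjusted p = 0.0236). NOP16, of the large subunit precursor, had the smallest adjusted p-value. Its values were 3743, 3631 and 3278 in DMSO and 3031, 2578 and 2765 in FK, a log2 fold change of −0.35 (SE 0.077, adjusted p = 0.0178). NOP56, NHP2, UBTF and DDX56 also fell, by 0.38, 0.28, 0.27 and 0.35 on the log2 scale.

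The 4 genes that rose in FK were DDX21, GNL2, GNL3 and UTP20. GNL2 and GNL3 are nucleolar GTPases of the large subunit precursor, and GNL3 (nucleostemin) is known for its high level in stem and tumour cells. DDX21 had 11599, 15771 and 11644 normalized counts in DMSO and 16117, 20684 and 15159 in FK. DMSO replicate 2 reached into the FK range, and the log2 fold change was 0.42 (adjusted p = 0.0426). UTP20 had 3711, 4250 and 3828 in DMSO and 4352, 5551 and 4813 in FK, a log2 fold change of 0.31 (SE 0.098, adjusted p = 0.039). MYC differed by −0.14 on the log2 scale (SE 0.072, adjusted p = 0.145), with FK replicate 1 inside the DMSO range.

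None of the 17 calls of FK against DMSO held in all alternative fits. The count fell to 0 without FK replicate 2, to 0 without DMSO replicate 1, to 1 without DMSO replicate 3 and to 0 when only the 6 libraries compared entered the fit. With the replicate number as a block it was 23 lower and 15 higher genes, where 21.3% of all genes tested were lower and 23.3% higher. That fit is read as paired from the values alone, since same-numbered DMSO and FK libraries deviated together. In the block fit MYC was lower in FK (adjusted p = 0.033), and NCL and NPM1 were higher (adjusted p = 0.0079 and 0.0012).

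**Figure D3:**
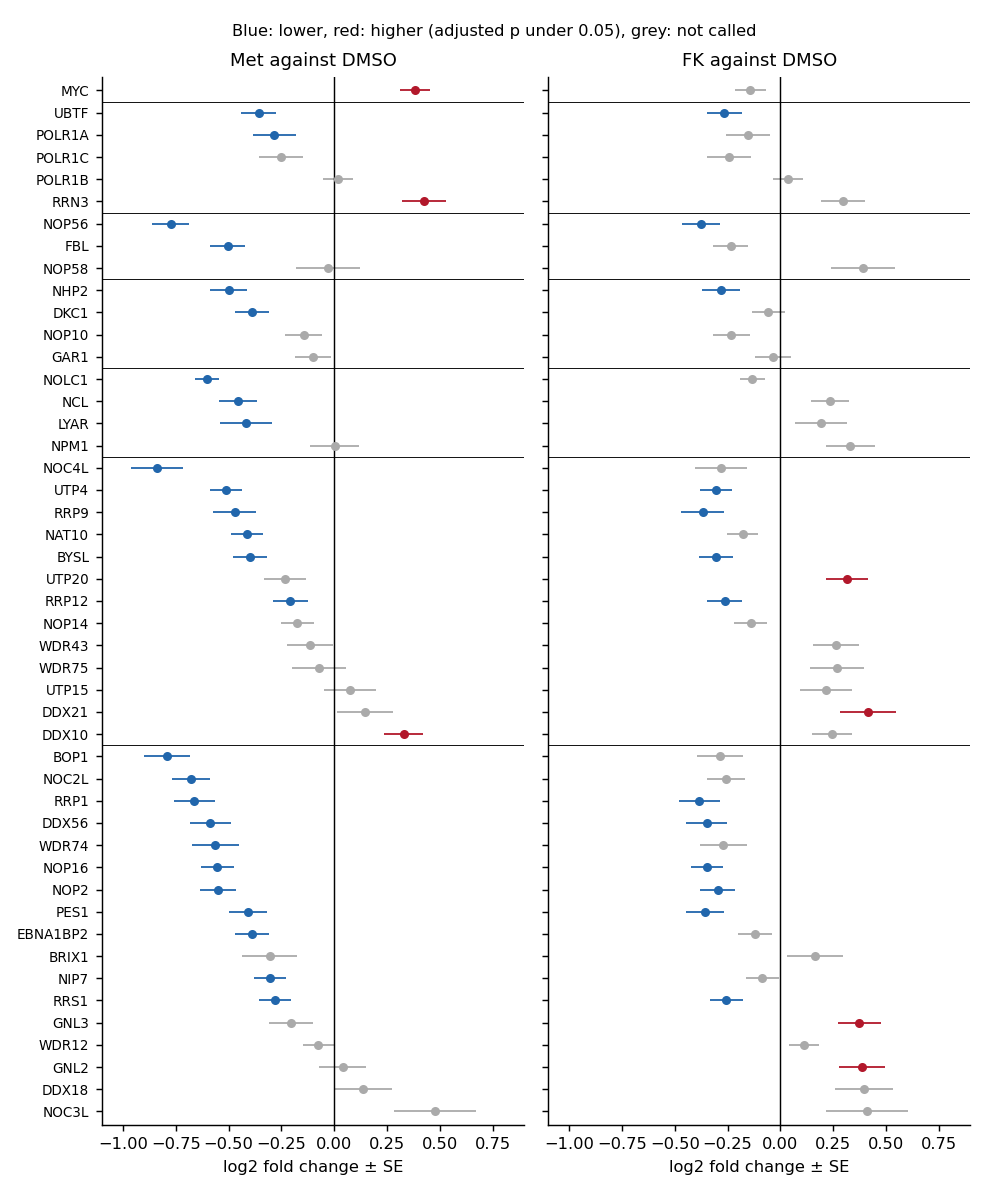
Each point is the log2 fold change of a gene with its standard error, on the left for Met against DMSO and on the right for FK against DMSO, with horizontal lines between role groups. In Met, 26 points are blue (lower) and 3 red (higher), and in FK 13 are blue and 4 red. Both comparisons use the same 3 DMSO libraries.

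The sign of the difference in FK went with the GC content of the transcript. The canonical transcripts of the 47 genes held from 37.7% to 65.6% GC, with a median of 47.9% against 48.5% over the genes tested. Over the 47 genes Pearson's r between GC content and the log2 fold change was −0.85 for FK against DMSO and −0.71 for Met against DMSO, as a description of points that share their libraries. The GC classes that follow were chosen after the values were seen. Of the 20 genes with at least 50% GC, 12 were lower and 0 higher in FK, and of the 17 genes under 45% GC, 0 were lower and 3 higher. In Met, 19 of the 20 GC-rich genes were lower and 0 higher, and among the 17 GC-poor genes 2 were lower (LYAR and NIP7) and 2 higher (RRN3 and DDX10). The same classes were not counted over all genes tested. These counts therefore do not set the 47 genes apart from other genes of like GC content. FK replicate 2 had the lowest value of the FK libraries in 19 of the 20 GC-rich genes and the highest in 15 of the 17 GC-poor genes. DMSO replicate 2 was the highest DMSO library in all 17 GC-poor genes, and DMSO replicate 1 in 17 of the 20 GC-rich genes.

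The fits were repeated on values from which a loess trend on GC content and transcript length had been taken out, library by library. For Met against DMSO, 34 of the 47 genes were then lower and 3 higher, where 32.5% of all genes tested were lower and 24.8% higher. The r with GC content was −0.32, and the 3 genes that rose were again MYC, RRN3 and DDX10, by 0.36, 0.20 and 0.17 on the log2 scale. UTP20, not called in the first fit, fell by 0.54 (adjusted p = 3.7e-08), and NOP56 fell by 0.67. More of the 47 genes were lower than before, as were more of all genes tested. At the fold threshold, however, 4 of the 47 genes were DEGs with a lower level in the corrected values, where 10% of all genes tested were, so the share of DEGs among the 47 was no longer above that of all genes. For FK against DMSO, 6 genes were lower and 2 higher after the correction, where 6.83% of all genes tested were lower and 4.25% higher. The 6 were UTP4, NOP56, NIP7, NOLC1, NOP16 and UBTF, and the 2 were GNL2 and GNL3. The r was −0.32, and the median log2 fold change was −0.079.

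**Figure D4:**
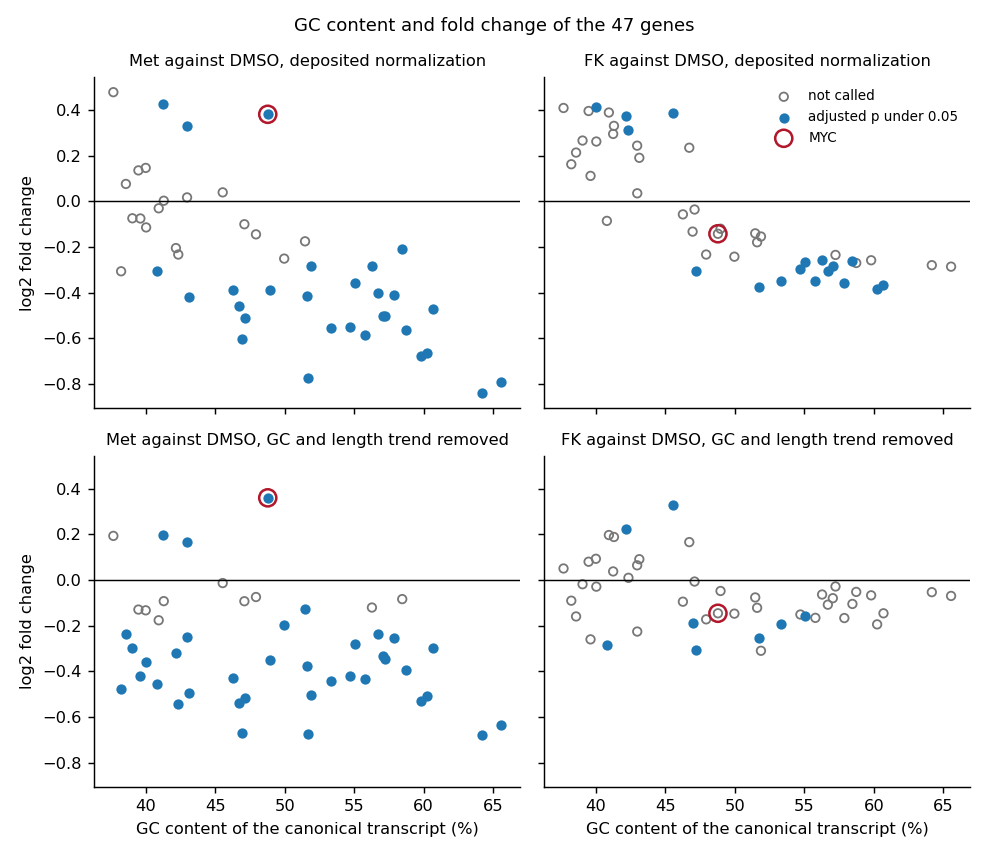
Each point is 1 of the 47 genes, with the GC content of its canonical transcript in percent on the x axis and the log2 fold change on the y axis, for Met and for FK against DMSO, before (top) and after (bottom) the GC and length trend was taken out. The points follow GC content closely at the top right (r = −0.85) and less so at the bottom right (r = −0.32). For Met r goes from −0.71 at the top to −0.32 at the bottom, where most points stay under 0 and MYC lies at 0.36.

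The third comparison asks what FK866 added in cells that had metformin. No gene of the 47 passed the test between Met+FK and Met with limma, where 0.0976% of all genes tested did, and 2 of the 47 had an unadjusted p-value under 0.05 (6.84% of all genes tested). The pair was MYC and WDR74. With edgeR the count was also 0, and with DESeq2 it was 1, MYC (0.562% of the genes to which DESeq2 gave an adjusted p). The median log2 fold change was 0.039, and the range went from −0.17 for NOP56 to 0.37 for MYC. All 3 Met+FK libraries of MYC (9907 to 10711) lay above all 3 Met libraries (7742 to 8601), a log2 fold change of 0.37 (SE 0.072, adjusted p = 0.0686). With the replicate number as a block the adjusted p was 0.0028, with the GC and length trend removed, where 1.04% of all genes tested passed, it was 0.0045, and with DESeq2 0.0025. WDR74, of the large subunit precursor, had 5881, 5770 and 5472 normalized counts in Met and 7104, 6635 and 7115 in Met+FK, but it did not pass after adjustment.

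The fourth comparison asks what metformin added in cells that had FK866. In Met+FK against FK, 18 of the 47 genes (38.3%) were lower and 3 (6.38%) higher, where 21.7% of all genes tested were lower and 20.5% higher. The median log2 fold change was −0.23. The 3 DEGs with a lower level (9.29% of all genes tested) were NCL, UTP20 and LYAR. NCL had 31862, 37168 and 30569 normalized counts in FK and 20287, 19943 and 18494 in Met+FK, far apart, with a log2 fold change of −0.76 (SE 0.090, adjusted p = 9.54e-06). UTP20 had 4352, 5551 and 4813 in FK and 2964, 3333 and 2941 in Met+FK, and it fell by 0.67 on the log2 scale (SE 0.098, adjusted p = 7.63e-05). LYAR had 1408, 1813 and 1374 in FK and 898, 1061 and 975 in Met+FK, a log2 fold change of −0.64 (SE 0.124, adjusted p = 0.000776).

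MYC had its largest difference here. It rose from between 5292 and 6029 normalized counts in FK to between 9907 and 10711 in Met+FK, a log2 fold change of 0.89 (SE 0.072, adjusted p = 2.28e-07) or 85.9%, and was a DEG with a higher level, as were 9.27% of all genes tested. NOLC1, NOP56, GNL3, NOP58 and NOC4L fell by 0.58, 0.57, 0.58, 0.49 and 0.46 on the log2 scale. DDX10 and NOP10 rose by 0.26 and 0.27. None of the 5 genes of RNA polymerase I transcription passed the test, and their log2 fold changes lay between −0.09 and 0.20. Of the 21 genes called, 12 were called in every alternative fit, MYC, NCL, UTP20 and LYAR among them.

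The combination against the vehicle gave 25 lower genes (53.2%) and 4 higher genes (8.51%) of the 47, where 26.1% of all genes tested were lower and 26.1% higher. The median log2 fold change was −0.28. The 5 DEGs with a lower level (11.3% of all genes tested) were NOP56, NOC4L, NOLC1, RRP1 and BOP1, and the DEG with a higher level (13.7% of all genes tested) was MYC. NOP56 had 8161, 7684 and 7729 normalized counts in DMSO and 4032, 3926 and 4255 in Met+FK, the largest fall of the 47 genes, a log2 fold change of −0.95 (SE 0.089, adjusted p = 7.08e-07). The level fell by 48.2%. NOLC1 fell by 0.71 (SE 0.057, adjusted p = 1.54e-07), and its Met+FK libraries (8849 to 9093) lay below its Met libraries (9267 to 9951). NOC4L fell by 0.74, RRP1 by 0.67 and BOP1 by 0.62. MYC rose by 0.75 (SE 0.072, adjusted p = 8.58e-07). RRN3, DDX10 and NOC3L rose by 0.50, 0.50 and 0.52, and the call of NOC3L was lost in 6 of the 18 alternative fits. This comparison shares its DMSO libraries with Met against DMSO and its Met+FK libraries with Met+FK against FK.

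The interaction is the effect of FK866 with metformin minus its effect without. No gene of the 47 passed with limma, where 0.0585% of all genes tested did, although 25 of the 47 had an unadjusted p-value under 0.05, as did 30.5% of all genes tested. With edgeR the count was 0 and with DESeq2 it was 11, where 10.2% of the genes with an adjusted p passed. The median was 0.15 on the log2 scale. MYC had the smallest adjusted p-value of the 47 genes, with an interaction of 0.51 (SE 0.102, adjusted p = 0.0809), where FK differed from DMSO by −0.14 and Met+FK from Met by 0.37. In the block fit 19 genes passed with a positive and 11 with a negative interaction, where 15.5% and 16.5% of all genes tested did, and MYC was among them (adjusted p = 0.0025). That fit also ties together libraries whose pairing did not pass. The interaction also went with GC content (r = 0.84 over the 47 genes). All 20 GC-rich genes had positive values, and 15 of the 17 GC-poor genes had negative ones. Such signs were not counted over all genes of like GC content. With the GC and length trend removed, 10 of the 17 GC-poor genes were positive, and their median went from −0.27 to 0.053. Then 2 of the 47 genes passed, where 0.6% of all genes tested did, MYC (0.50, adjusted p = 0.0092) and UTP4 (0.42, adjusted p = 0.034), and r was 0.29.

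The rest of the pathway was described with 3 further lists, written with earlier results of these data known. Beside their counts stand all genes tested, of which 25.9% were lower and 24.9% higher in Met than in DMSO. Of 10 other genes of RNA polymerase I transcription, 3 were lower and 1 higher in Met than in DMSO, with a median log2 fold change of −0.052. Their lowest was CD3EAP, a polymerase subunit, at 2726 ± 34.6 normalized counts in DMSO and 1598 ± 108 in Met (SD, n = 3), a log2 fold change of −0.77. Their highest was TAF1A, of the promoter selectivity factor, at 0.38 (adjusted p = 0.049). Of 46 other genes of small subunit processing, 17 were lower and 2 higher, with a median of −0.14. NOP9 had 1790 ± 164 in DMSO and 845 ± 157 in Met (SD, n = 3), which is −1.09 in log2 (adjusted p = 5.5e-06), while ESF1 had 0.56 and did not pass the test. Of 41 other genes of large subunit processing, 18 were lower and 7 higher, with a median of −0.095. They ran from MRTO4, the paralogue of ribosomal protein P0 that acts in assembly, with −0.87 (adjusted p = 3.1e-06) to RSL24D1, a ribosomal-like assembly factor, with 0.93 (adjusted p = 8.7e-05).

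RNA polymerase III makes the 5S ribosomal RNA and the transfer RNAs. For the lists that follow, too, 25.9% of all genes tested were lower and 24.9% higher in Met. In Met+FK against FK these shares were 21.7% and 20.5%. Of 22 genes of the RNA polymerase III machinery, 8 were lower and 2 higher in Met, with a median of −0.069. They ran from POLR3K at −0.98 (adjusted p = 8e-07) to GTF3C3 at 0.49 (adjusted p = 0.0056). The last list held 79 genes of cytosolic ribosomal proteins. In Met against DMSO 15 were lower and 3 higher, with a median of −0.087. In Met+FK against FK only 2 were lower and 34 were higher, with a median of 0.18, where the 46 genes without MYC had 18 lower and 2 higher and a median of −0.23. RPS26 had the lowest value in both, at −1.22 (adjusted p = 1.8e-07) in Met against DMSO and −0.89 in Met+FK against FK, and RPL12 the highest, at 0.33 (adjusted p = 0.0019) and 0.63. Ribosomal protein genes have many near-identical copies, so their values are uncertain.

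**Figure D5:**
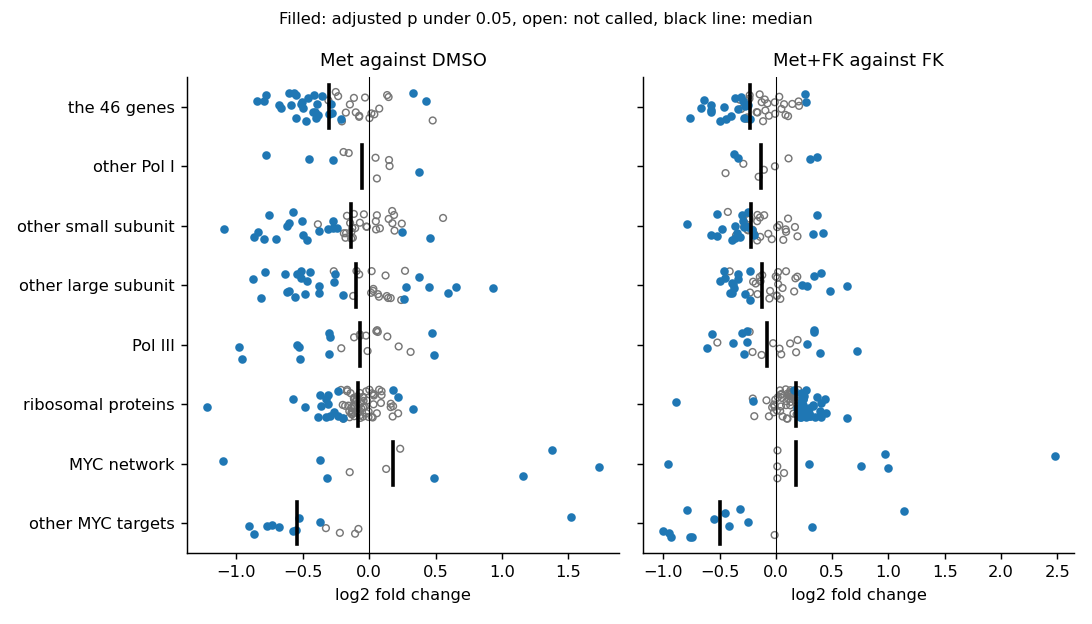
Each point is the log2 fold change of a gene, filled where the adjusted p-value was under 0.05, with the median of each list as a black line, for Met against DMSO on the left and Met+FK against FK on the right. The 46 genes lie mostly left of 0 in both panels, while the ribosomal protein genes move from a median of −0.087 on the left to 0.18 on the right and the MYC network spreads widest.

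MYC acts within a network of related proteins that compete for MAX and for the same E-boxes, and 10 of its 11 listed genes could be tested. MAX, the shared partner, did not pass the test in any of the 5 comparisons between treatments, with log2 fold changes from −0.18 to 0.01. MXD1 and MXI1, which pair with MAX and repress, both rose in Met. MXD1 had 569 ± 59.97 normalized counts in DMSO and 1471 ± 56.3 in Met (SD, n = 3), which is 1.37 in log2 (adjusted p = 8.1e-08). MXI1 had 420.5 ± 53.6 and 940 ± 99.9 (SD, n = 3), which is 1.16 in log2 (adjusted p = 1.4e-06). MYCL, the paralogue of MYC, rose from a low level, 78.6 ± 12.4, to 262 ± 22.02 (SD, n = 3), with a log2 fold change of 1.73 (adjusted p = 2.9e-07).

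The other members of the network went both ways. MXD3, another repressor, had 459.6 ± 18.5 in DMSO and 217 ± 45.3 in Met (SD, n = 3), and fell by 1.095 in log2 (adjusted p = 1.4e-05). MGA rose by 0.49, and MLX and MLXIP, which form a parallel pair that senses glucose metabolites, fell by 0.31 and 0.37. MNT and MXD4 had log2 fold changes of 0.23 and 0.13 in Met and did not pass the test there, but both rose in Met+FK against FK, by 0.76 and 0.29. In FK against DMSO, MXD1, MXI1 and MGA rose by 0.49, 0.40 and 0.43, and MYCL, MNT, MLX and MLXIP fell by 0.42, 0.39, 0.27 and 0.30. Of all genes tested, 11.3% were higher and 9.84% lower there. The share of all genes called in FK against DMSO went from 21.1% to 1.53% without FK replicate 2. How far the FK calls of the network held in the alternative fits is not given here. In Met+FK against Met none of the 10 passed the test, and 1 had an unadjusted p-value under 0.05. MYCN, with means under 3 normalized counts in each treatment, was not tested.

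Known targets of MYC outside ribosome biogenesis mostly fell as well. Of 14 such genes, 9 were lower and 1 higher in Met, with a median of −0.54, where 25.9% of all genes tested were lower and 24.9% higher. In Met+FK against FK 11 were lower and 2 higher, with a median of −0.50, where 21.7% of all genes tested were lower and 20.5% higher. ODC1, the rate-limiting enzyme of polyamine synthesis, had 69855 ± 3340 normalized counts in DMSO and 37380 ± 1522 in Met (SD, n = 3), which is −0.90 in log2 (adjusted p = 1.7e-07). CCND2, cyclin D2, was the one that rose, with 2619 ± 190 in DMSO and 7505 ± 491 in Met (SD, n = 3), which is 1.52 in log2 (adjusted p = 2.7e-08). These 14 genes were chosen with results of these data known, so their median is a description and not independent evidence.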

How the data were processed

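Following the study's methods, RNA depleted of ribosomal RNA was sequenced, reads were trimmed with cutadapt and aligned to hg38 with STAR, and read pairs were counted per gene with featureCounts. The authors deposited these counts divided by DESeq2 size factors, a signal that is never negative. Dividing back gave whole read pairs for 100% of the values, within 0.01. The strand setting and annotation are not given in the sources used here. No replicates agreed within counting noise (from 5.31 to 46.8 for the chi-square per degree of freedom). The labels give no batch.

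Treatments were compared with limma-trend (limma 3.58.1, R 4.3.3) on log2(normalized count + 1). All 12 libraries entered 1 model, fitted to the 15376 genes whose mean was at least 10, with Benjamini-Hochberg adjustment in each comparison. Changes of low genes are understated on this scale. The script was tested on simulated counts with known changes. GC content and length are those of the canonical transcript in GENCODE, known for 99.7% of the genes tested.

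The alternatives were pseudocounts of 0.1 and 10, other filters, equal totals, TMM scaling, a block for the replicate number, fits to the compared libraries alone, a loess trend (span 0.3) on GC content and length removed with and without the block, edgeR 4.0.16 and DESeq2 1.42.0 on the recovered read pairs, and each library left out. Pairing was checked as the correlation between libraries of the same number, each after its group mean was subtracted. The correlations were 0.25, 0.42 and 0.22 between DMSO and FK, and 0.17, 0.20 and 0.23 between Met and Met+FK. All exceeded 0.1, and on that ground alone, with no label behind it, these were treated as pairs. With the GC trend removed they were 0.14, 0.17 and 0.13, and 0.16, 0.096 and 0.074, so for Met and Met+FK the pairing did not hold in those values. Before the GC trend was removed, the correlations were 0.013, 0.33 and 0.25 between DMSO and Met, and 0.046, 0.24 and 0.14 between FK and Met+FK. Replicate 1 fell under 0.1 in both, so those were not treated as pairs. Replicates 2 and 3 of DMSO and Met nonetheless correlated more than any replicate of Met and Met+FK. The block for the replicate number was shared by all 4 treatments, so it ties these libraries together too.

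The 47 genes, the lists and the rule for named genes were chosen with earlier results of these data known. The rule asked for full values of MYC, of the largest and smallest log2 fold change of Met against DMSO in each role group and list, of every DEG, of the smallest adjusted p in FK against DMSO, Met+FK against Met and the interaction, and of the tested MYC network. Other genes were named after their values were seen. Of the cell type markers, 1 is not reported here, nor is the sum that holds it.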

Additional observations from a re-analysis of the deposited data

Results flagged for a closer look

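NOP16 was the one gene of the 47 for which the FK866 libraries lay apart in opposite directions with and without metformin. NOP16 is named here because of that pattern, which was not counted over all genes tested. Its FK libraries (2578 to 3031 normalized counts) all lay below its DMSO libraries (3278 to 3743), a log2 fold change of −0.35, while its Met+FK libraries (2520 to 2623) all lay above its Met libraries (2360 to 2451), a log2 fold change of 0.09. The effects differed by 0.4391 on the log2 scale, and the interaction did not pass the test in limma (adjusted p = 0.106). It passed with the replicate number as a block (adjusted p = 0.0065) and with DESeq2 (adjusted p = 0.019), and it did not with the GC and length trend removed (0.28, adjusted p = 0.098). The block also ties DMSO to Met and FK to Met+FK, whose pairing did not pass. NOP16 overlaps ARL10 and HIGD2A on the other strand, of which the more abundant had a mean of 2311 normalized counts against 2833 for NOP16.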

How the results depend on the processing

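No called gene and no count of calls changed direction under any alternative run, but the uncalled median of Met+FK against Met was −0.0001 with equal totals (0.0393 otherwise), and the interaction in genes under 45% GC changed sign without the GC trend. Counts of called genes for Met against DMSO stayed between 27 and 30 with 1 library left out, and 7 remained at the DEG thresholds of the study, where edgeR gave 5 lower DEGs and the fit without the GC trend 4. With equal totals the medians of Met and of Met+FK against DMSO were −0.1807 and −0.1974. For FK against DMSO the 17 calls became 10 with all genes of any value, 0 with only the libraries compared, 38 with the replicate block, 8 with the GC and length trend removed and 0 at the DEG thresholds, and between 0 and 24 with 1 library left out. The share of all genes called went from 21.1% to 6.39%, 0.989%, 44.6% and 11.1% in the first 4 of these. With 1 library left out that share lay between 0.865% and 32.1%. For Met+FK against Met the count of 0 became 1 with only the libraries compared, 1 with the replicate block, 1 with the GC trend removed, 2 with both and 1 with DESeq2. The share of all genes called went from 0.0976% to 0.254%, 0.78%, 1.04%, 3.39% and 0.562% in these. For Met+FK against FK the 21 calls became 32 with the block, whose pairing did not pass there, 34 with the GC trend removed, 37 with both and 4 at the DEG thresholds, while the share of all genes called went from 42.1% to 52.5%, 54.3% and 59% in the first 3 of these. For Met+FK against DMSO 6 remained at the DEG thresholds. For the interaction the count of 0 became 30 with the block, 2 with the GC trend removed, 10 with both and 11 with DESeq2. The share of all genes called went from 0.0585% to 32%, 0.6%, 6.97% and 10.2% in these. With 1 library left out the count for the interaction lay between 0 and 16, the latter without FK replicate 1, where 12% of all genes passed. The median of the interaction lay between 0.0887, without Met+FK replicate 1, and 0.2111. The causes of these changes were not tested. Of the values of the 47 genes that the rule for named genes asked for, 522 kept their side of the threshold over the alternatives. A further 20 passed it only in the alternative and 3 no longer passed it. Genes named outside the rule are not in this tally, and some of their calls were less stable. In FK against DMSO, UTP20 kept its call in 10 of the 18 alternative fits and DDX21 in 11, and in Met against DMSO RRP12 kept it in 7. The block turned no call of Met against DMSO or Met+FK against DMSO into its opposite. The lowest of the 47 genes had a mean of 929 normalized counts, so for most of them the spread between the 3 libraries, rather than counting error, sets the precision. In some treatments that spread was small, as for GAR1 in Met+FK, with an SD of 20.2 at a mean of 903 normalized counts.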
